A study of Mus musculus with 9 samples.

Results

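The genes described here encode the C/EBP transcription factors Cebpa, Cebpb, Cebpd and Cebpg together with their stress-induced relative Ddit3, also called CHOP. They were chosen by gene symbol, as every probe set annotated to 1 of these 5 symbols. Each symbol had exactly 1 probe set (98447_at for Cebpa, 92925_at for Cebpb, 160894_at for Cebpd, 92195_at for Cebpg and 101429_at for Ddit3), so the 5 members are 5 of 8252 genes that the arrays measured with a probe set of a single symbol. All 5 probe sets passed the filter on dim signals. The members are known by their annotation only, and which transcript variant a probe set reads was not analysed here.

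The samples were spinal cords of B10.PL mice, 1 array for each of 9 samples in 3 groups of 3. Naive mice (replicates 2, 3 and 4) had no disease, and the labels give them no placebo and no treatment time. The other mice had experimental autoimmune encephalomyelitis (EAE), in which the immune system attacks myelin, used as a model of multiple sclerosis, and received placebo (replicates 1, 5 and 10) or 200 ng of 1,25(OH)2D3, the hormone calcitriol (replicates 6, 7 and 8), with cords taken 6 h later. The title of replicate 6 names 1,25(OH)2D2 and its description 1,25(OH)2D3. How EAE was induced, the age and sex of the mice, and whether a sample was 1 animal or a pool are not given in the sources used here, so the p-values reflect sample-to-sample spread that could be technical.

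C/EBP proteins bind DNA as dimers through a basic region and a leucine zipper, and each can pair with the others. Cebpa holds cells in a differentiated state in liver, fat and the myeloid lineage. Cebpb and Cebpd are switched on by interleukin-6, interleukin-1 and bacterial products and drive acute-phase and inflammatory genes in macrophages, microglia and astrocytes. Cebpg lacks a transactivation domain and acts as a dimer partner, and Ddit3 lacks normal C/EBP-site binding and is induced when protein folding or amino acid supply fails.

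In EAE, Cebpb and Cebpd were the members that rose, several-fold in both treatment groups, whereas Cebpa, Cebpg and Ddit3 did not pass the test in any comparison. Signals below are array units after each array was scaled to a common mean of 192.8, with a floor of 19.3 below which values have no order. Differences are log2 differences from 1 limma fit over all 9 arrays, given with the standard error (SE) of the fit, and adjusted p is the Benjamini-Hochberg value over 12177 probe sets, with a threshold of 0.05. Between placebo-treated EAE and naive cord, 2 of 5 members were called higher and 0 lower, where 0.936% of all probe sets were called, 0.887% higher and 0.0493% lower. Between calcitriol-treated EAE and naive cord, the same 2 members were called higher and 0 lower, where 2% of all probe sets were called, 1.68% higher and 0.32% lower. The 2 comparisons share the naive arrays and are not independent.

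**Figure D1:**
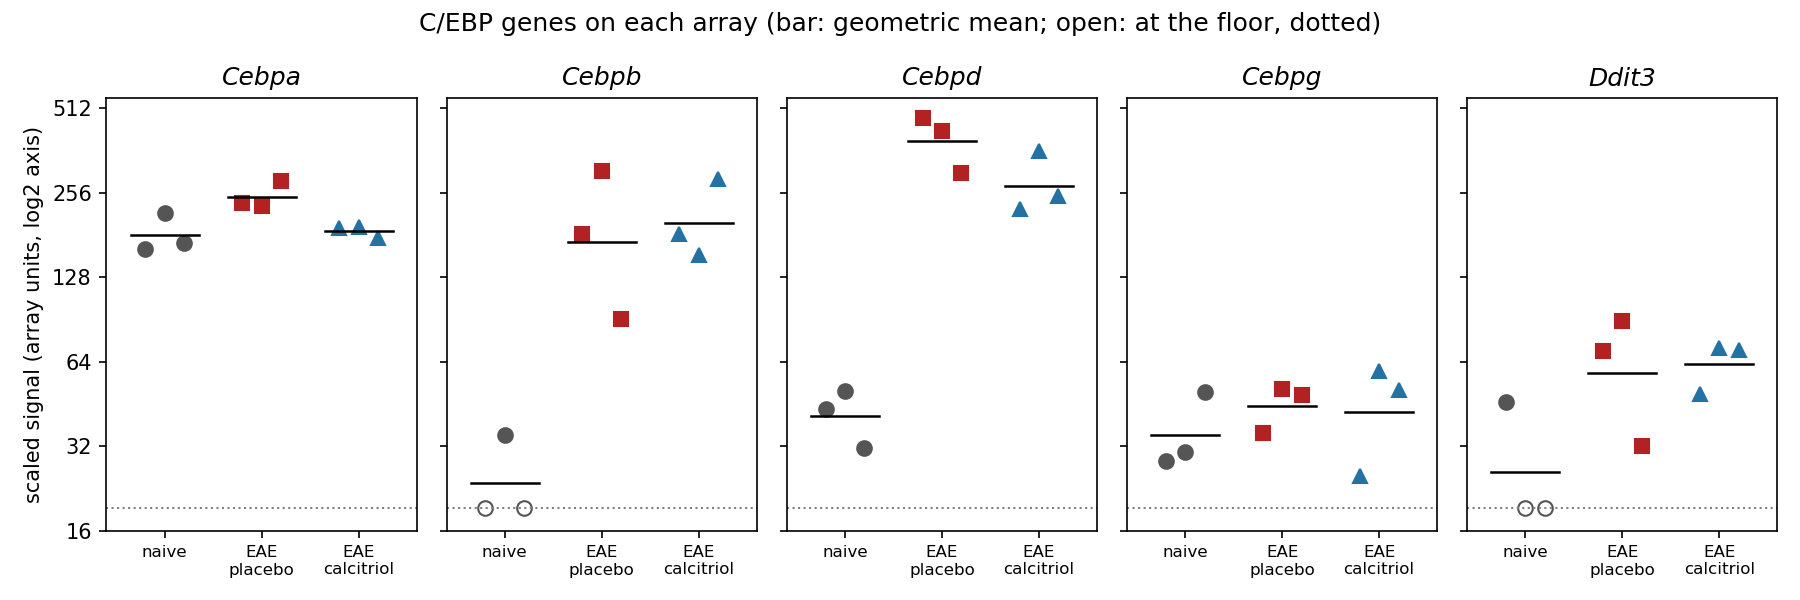
Scaled signal (array units, log2 axis) of the 5 genes on each of 9 arrays, by group; each point is 1 array, bars are geometric means with values at the floor of 19.3 set to it, and open points lie at the floor (dotted line). For Cebpb and Cebpd all 6 EAE arrays lie above all 3 naive arrays, and for Cebpg the groups overlap.

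Cebpd, a rapid-response C/EBP of astrocytes and myeloid cells, was above the floor on every array. Its signal was 43.5, 50.4 and 31.5 on naive replicates 2, 3 and 4, then 475, 425 and 301 on placebo replicates 1, 5 and 10, and 224, 360 and 249 on calcitriol replicates 6, 7 and 8. Every EAE array was above every naive array, and the lowest EAE array, calcitriol replicate 6, was still several-fold above the highest naive array. Means were 41.8 ± 9.58 in naive, 400 ± 89.4 in placebo and 278 ± 72.6 in calcitriol cord (SD, n = 3 each). Cebpd rose 9.58-fold in placebo-treated EAE (3.26 ± 0.27 log2, SE, limma adjusted p = 0.000783) and 6.62-fold in calcitriol-treated EAE (2.73 ± 0.27 log2, SE, limma adjusted p = 0.00189). Among 12177 tested probe sets this was the 17th largest rise in placebo and the 60th largest in calcitriol-treated EAE. The calls held in all 19 alternative settings, with differences of 3.05 to 3.45 log2 for placebo and 2.52 to 2.88 log2 for calcitriol.

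Cebpb, the C/EBP also known as NF-IL6 for its part in interleukin-6 signalling and a regulator of macrophage activation, was near or below the floor in naive cord. Its signal was -0.495, 35.1 and 18.8 on naive replicates 2, 3 and 4, of which replicates 2 and 4 are at the floor. It was 182, 306 and 90.5 on placebo replicates 1, 5 and 10, and 182, 153 and 286 on calcitriol replicates 6, 7 and 8. All EAE arrays lay above all naive arrays, but placebo arrays differed among themselves more than for any other member (SD 0.88 log2, n = 3), with replicate 10 lowest and replicate 5 highest. Cebpb rose by 2.86 ± 0.46 log2 (SE, 7.28-fold, limma adjusted p = 0.024) in placebo and by 3.09 ± 0.46 log2 (SE, 8.5-fold, limma adjusted p = 0.00932) in calcitriol-treated EAE. With naive values at the floor these sizes depend on where the floor lies. At floors of 5% and 20% of the common mean in place of 10%, the placebo difference was 3.21 and 2.15 log2 (limma adjusted p = 0.0354 and 0.0507), and the calcitriol difference was 3.43 and 2.37 log2 (limma adjusted p = 0.0158 and 0.0189).

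The placebo call for Cebpb rested on single arrays more than that for Cebpd. It was lost without naive replicate 4 (2.72 log2, limma adjusted p = 0.0727), without placebo replicate 1 (2.82 log2, adjusted p = 0.123) and without placebo replicate 5 (2.45 log2, adjusted p = 0.106). It was also lost in a fit of the naive and placebo arrays alone (2.86 log2, limma adjusted p = 0.085). The calcitriol call was lost without calcitriol replicate 8 (2.83 log2, limma adjusted p = 0.06). The direction was the same in every one of these fits.

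Promoter sequence is shown for Cebpb, the called member for which it was at hand, and for Cebpa and Ddit3, which were not called, so that the letters upstream of each start site can be compared. RefSeq promoters (GRCm38.p6) matched 4 of the 5 members, Cebpa, Cebpb, Cebpg and Ddit3. The 250 bases upstream of the start site were searched on both strands for 6 motifs: the C/EBP palindrome TTGCNNAA, the C/EBP and ATF composite element TTGCATCA, the cAMP response element TGACGTCA, its core TGACG, the STAT palindrome TTCNNNGAA and the AP-1 element TGANTCA. The core TGACG is contained in the full cAMP response element. Capitals mark matches, and each line runs 5′ to 3′ on the gene's strand.
Cebpb, chr2:167688665-167688914, + strand: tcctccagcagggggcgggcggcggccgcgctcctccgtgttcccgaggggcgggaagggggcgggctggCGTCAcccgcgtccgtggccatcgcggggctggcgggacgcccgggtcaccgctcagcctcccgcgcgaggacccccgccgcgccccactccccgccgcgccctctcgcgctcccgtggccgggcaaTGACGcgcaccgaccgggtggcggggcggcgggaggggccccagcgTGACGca
Cebpa, chr7:35119043-35119292, + strand: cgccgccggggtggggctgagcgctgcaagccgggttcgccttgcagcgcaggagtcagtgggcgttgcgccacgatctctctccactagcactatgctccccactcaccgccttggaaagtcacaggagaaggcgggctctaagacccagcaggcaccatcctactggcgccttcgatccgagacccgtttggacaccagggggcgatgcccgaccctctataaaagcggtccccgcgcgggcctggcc
Ddit3, chr10:127290543-127290792, + strand: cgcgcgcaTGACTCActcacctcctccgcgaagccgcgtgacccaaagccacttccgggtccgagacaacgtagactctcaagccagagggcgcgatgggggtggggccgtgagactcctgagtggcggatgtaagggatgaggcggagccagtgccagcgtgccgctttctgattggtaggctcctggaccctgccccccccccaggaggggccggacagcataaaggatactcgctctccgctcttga

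The Cebpb stretch held the core TGACG 3 times, at 180 to 176 bases (on the opposite strand), 53 to 49 bases and 7 to 3 bases before the start site. Of 32851 promoters of the same length, 17.8% held at least 1 TGACG and 0.688% held 3 or more. The Ddit3 stretch held 1 AP-1 element, TGACTCA, at 242 to 236 bases before the start site, a motif found in 6.75% of promoters. The Cebpa and Cebpg stretches held none of the 6 motifs, as did 63.6% of all promoters. The Cebpb stretch was 81.6% G and C, higher than 99.3% of promoters, against 66.4% for Cebpa, 70.8% for Cebpg, 64.8% for Ddit3 and a median of 52.4% over all promoters. Matches describe letters in these windows and were not tested against the signals. Cebpa and Cebpg are near neighbours on chromosome 7.

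Cebpa, the C/EBP of differentiated myeloid and metabolic cells, was well above the floor in every group and varied little. Its signal was 161, 217 and 169 on naive replicates 2, 3 and 4, 235, 230 and 282 on placebo replicates 1, 5 and 10, and 192, 194 and 176 on calcitriol replicates 6, 7 and 8. The placebo arrays were above all other arrays, while the calcitriol arrays lay inside the naive range. Placebo against naive gave 0.45 ± 0.17 log2 (SE, 95% interval 0.08 to 0.83, limma adjusted p = 0.396) and calcitriol against naive 0.05 ± 0.17 log2 (SE, 95% interval -0.33 to 0.43, limma adjusted p = 0.95). Neither passed the threshold, and both intervals leave out a change as large as that of Cebpb or Cebpd. Cebpa was 1 of 3 members, with Cebpb and Cebpd, whose placebo arrays all lay above all naive arrays, where 7.39% of all probe sets did so. No member had its placebo arrays all below, where 7.13% of probe sets did.

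Cebpg, the dimer partner without an activation domain, was dim in all groups. Its signal was 28.2, 30.5 and 50 on naive replicates 2, 3 and 4, 35.6, 51 and 48.6 on placebo replicates 1, 5 and 10, and 25.1, 59.3 and 50.6 on calcitriol replicates 6, 7 and 8. The 3 groups overlapped, and calcitriol replicate 6 was the lowest of all arrays and calcitriol replicate 7 the highest. The differences from naive were 0.35 ± 0.40 log2 (SE, 95% interval -0.55 to 1.24) for placebo and 0.27 ± 0.40 log2 (SE, 95% interval -0.63 to 1.16) for calcitriol, with a limma adjusted p of 0.854 in each. A change of 2-fold upward in EAE lies within both intervals.

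Ddit3, the stress-induced member, was higher on most EAE arrays but did not pass the test. Its signal was 46, 15.6 and 6.23 on naive replicates 2, 3 and 4, of which replicates 3 and 4 are at the floor. It was 69.9, 89.6 and 31.9 on placebo replicates 1, 5 and 10, and 49.1, 71.4 and 70.4 on calcitriol replicates 6, 7 and 8. Placebo replicate 10 lay below naive replicate 2, so those groups overlapped, whereas all calcitriol arrays lay above all naive arrays, as did those of Cebpb and Cebpd, where 8.45% of all probe sets did so and 7.69% lay all below. The differences were 1.18 ± 0.48 log2 (SE, 95% interval 0.11 to 2.25, limma adjusted p = 0.458) for placebo and 1.28 ± 0.48 log2 (SE, 95% interval 0.21 to 2.35, limma adjusted p = 0.298) for calcitriol. The highest naive value was that of naive replicate 2, whose log2 signals had a mean r of 0.801 with the other naive arrays, against 0.857 and 0.822 for replicates 3 and 4. Without it the differences were 1.6 ± 0.46 log2 (SE, limma adjusted p = 0.17) and 1.70 ± 0.46 log2 (SE, limma adjusted p = 0.0925). With array weights, which put naive replicate 2 at 0.259 and naive replicate 3 at 4.38, Ddit3 passed the threshold at 1.58 and 1.72 log2 (limma adjusted p = 0.033 and 0.0185). At a floor of 20% of the common mean the differences were 0.61 and 0.62 log2.

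**Figure D2:**
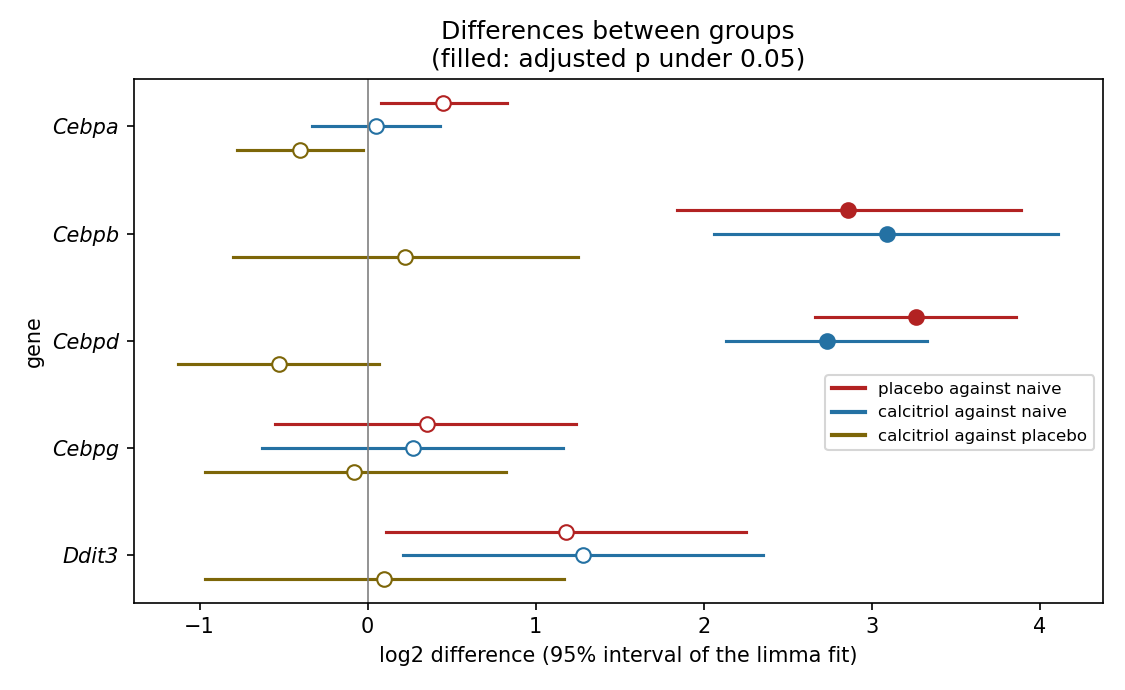
Log2 differences (points) with 95% intervals of the limma fit (lines) for the 5 genes in the 3 comparisons; filled points have an adjusted p under 0.05. The filled points are those of Cebpb and Cebpd against naive cord, at 2.73 to 3.26 log2, and every interval for calcitriol against placebo is centred within 0.53 log2 of 0.

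Calcitriol and placebo were compared within EAE to see whether the hormone altered the family at 6 h. None of the 5 members passed, and neither did any of 12177 probe sets: limma called 0 (0% higher, 0% lower) at an adjusted p under 0.05, and 314 had an unadjusted p under 0.05. That share is below the 0.05 that would arise with no differences, so the fit may miss real differences here. Cebpd stood at -0.53 ± 0.27 log2 (SE, 95% interval -1.13 to 0.07) and Cebpa at -0.40 ± 0.17 log2 (SE, 95% interval -0.78 to -0.03), with a limma adjusted p of 1 for each. The calcitriol arrays of Cebpa all lay below the placebo arrays, where 5.17% of all probe sets did so and 4.82% lay all above. For Cebpd they overlapped, with calcitriol replicate 7 above placebo replicate 10. Cebpb stood at 0.22 ± 0.46 log2 (SE, 95% interval -0.80 to 1.25), Ddit3 at 0.10 ± 0.48 log2 (SE, 95% interval -0.97 to 1.17) and Cebpg at -0.08 ± 0.40 log2 (SE, 95% interval -0.97 to 0.82), again with a limma adjusted p of 1. The sign for Cebpb turned without placebo replicate 10 (-0.24 log2) or calcitriol replicate 8 (-0.03 log2), and that for Ddit3 turned without placebo replicate 10 (-0.34 log2). The main fit shares its spread with the naive arrays. In a fit of the EAE arrays alone, Cebpa stood at -0.40 ± 0.14 log2 and Cebpd at -0.53 ± 0.22 log2 (SE, limma adjusted p = 0.931 for each).

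Ordered by mean log2 signal, Cebpd ran from naive through calcitriol to placebo, and Cebpb and Ddit3 from naive through placebo to calcitriol. Cebpa ran from naive through calcitriol to placebo, and Cebpg from naive through calcitriol to placebo. For each gene the neighbours calcitriol and placebo did not differ past the threshold, and for Cebpa, Cebpg and Ddit3 no neighbours did.

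Cebpb and Cebpd separated the naive from the EAE arrays alike but ranked the EAE arrays differently. Placebo replicate 5 was high for both. Calcitriol replicate 8 was just below it for Cebpb, but for Cebpd only calcitriol replicate 6 was lower among EAE arrays. Placebo replicate 1 was the highest for Cebpd. Ddit3 shared its extremes with Cebpb among placebo arrays: replicate 5 was the highest and replicate 10 the lowest for both genes.

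**Figure D3:**
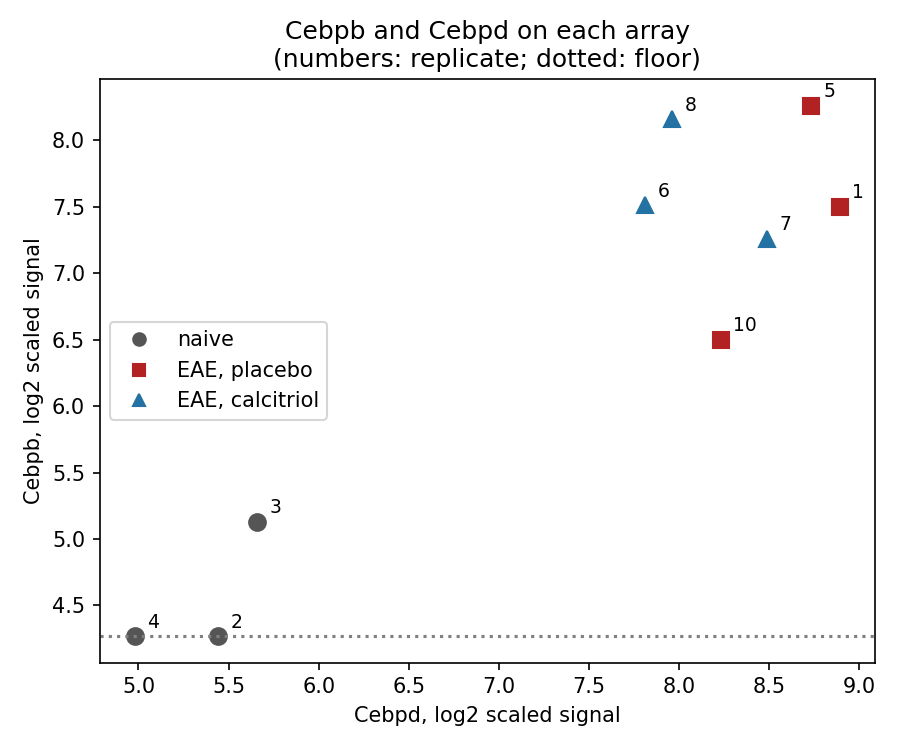
Log2 scaled signal of Cebpb against that of Cebpd on each of 9 arrays, numbered by replicate, with the floor dotted. Naive arrays sit together at the lower left, and the 6 EAE arrays spread at the upper right with no common order, from placebo replicate 10 (Cebpb 6.5) to placebo replicate 5 (Cebpb 8.26).

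Genes with the most similar profile were sought for the called members among 9406 probe sets of 7534 genes with a mean signal above 2 times the floor, by Pearson r of log2 signal over the 9 arrays. For Cebpb these were Zfp36l2, an RNA-binding protein (r = 0.989), the interferon-induced GTPase Gbp2 (r = 0.984), the proteasome activator subunit Psme1 (r = 0.98), the lipid droplet protein Plin2 (r = 0.979) and Nfkbia, the inhibitor of NF-kappa B (r = 0.979). For Cebpd they were the protease inhibitor Serpina3n (r = 0.982), Mettl8, an RNA methyltransferase (r = 0.981), the small GTPase Rhoj (r = 0.969), the basement membrane collagen Col4a1 (r = 0.963) and Fos, a leucine zipper factor of the AP-1 family (r = 0.963). The naive and EAE arrays form separate clusters for both genes, and the 9 points share that gap. Over the 6 EAE arrays alone, r was 0.795 to 0.952 for the 5 genes nearest Cebpb and 0.38 to 0.757 for those nearest Cebpd. The genes were picked by r over 9 arrays that include these 6, so these values are no independent check of the likeness. No gene was among the 5 nearest of both.

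The remaining paragraphs follow genes of the C/EBP pathway, from inducers to targets, by lists of genes with a known role. Over all tested probe sets the median difference was -0.02 log2 in both comparisons with naive cord and 0 between the EAE groups. The inducer list holds cytokines, receptors and signal carriers of the pathways that switch on Cebpb and Cebpd. It also holds inhibitors in these pathways, Nfkbia and Socs3 among them. Of its 20 measured genes, 1 rose in placebo-treated EAE and 3 in calcitriol-treated EAE, with medians of 0.26 and 0.35 log2. Of all probe sets, 0.887% and 1.68% were called higher in these comparisons. Osmr, the oncostatin M receptor, which signals through STAT3, rose in both (1.85 ± 0.34 and 1.72 ± 0.34 log2, SE, limma adjusted p = 0.0424 and 0.0369). Nfkbia and the endotoxin coreceptor Cd14 rose in calcitriol-treated EAE (0.83 and 1.04 log2, limma adjusted p = 0.0218 and 0.024) and stood at 0.73 and 0.76 log2 in placebo-treated EAE (limma adjusted p = 0.0591 and 0.141). Socs3, the feedback inhibitor of STAT3, stood at 1.00 and 1.02 log2 (limma adjusted p = 0.191 and 0.116). The calls on this list depended on single arrays: the placebo count was 0 without naive replicates 3 or 4, placebo replicates 1 or 5, or calcitriol replicates 6 or 8, and 2 without placebo replicate 10. The calcitriol count was 1 without naive replicates 3 or 4 and 0 without any calcitriol array.

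Of 20 measured inflammatory and acute-phase genes known as C/EBP targets, 3 rose in placebo-treated and 8 in calcitriol-treated EAE, and none fell. Over all probe sets, 0.887% and 1.68% were called higher, and 0.0493% and 0.32% lower. Their medians were 0.90 and 0.79 log2. Serpina3n rose 39.3-fold and 29.7-fold (5.30 ± 0.22 and 4.89 ± 0.22 log2, SE, limma adjusted p = 4.91e-06 and 1.04e-05). Lcn2, the iron-scavenging lipocalin, rose 4.02-fold and 4.44-fold, and the serum amyloid Saa3 2.36-fold and 2.53-fold (limma adjusted p = 0.0104, 0.00401, 0.0262 and 0.0113). The pentraxin Ptx3 rose by 2.64 ± 0.30 log2 (SE, limma adjusted p = 0.00312) in calcitriol-treated EAE and stood at 1.55 ± 0.30 log2 (SE, limma adjusted p = 0.0503) in placebo-treated EAE. The other members called with calcitriol, named here after their values were seen, were Timp1 (whose other probe set had the opposite sign), Il1rn, Ccl3 and the chemokine Ccl2, whose naive arrays were all at the floor (at least 37.6-fold). Without placebo replicate 5 the placebo count was 1, and the calcitriol count was 5 without naive replicates 3 or 4, placebo replicate 1 or calcitriol replicate 7, and 4 without calcitriol replicates 6 or 8.

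Of 19 measured myeloid genes known as C/EBP targets, 5 rose in placebo-treated and 6 in calcitriol-treated EAE, with medians of 0.57 and 0.38 log2, and none fell. The shares of all probe sets called higher were 0.887% and 1.68%. Arg1, an arginase made by activated macrophages, had every naive array at the floor, and its rise was at least 59.5-fold and at least 126-fold (limma adjusted p = 1.68e-06 and 3.4e-07). S100a8, a calprotectin subunit, rose 8.97-fold and 10.1-fold (limma adjusted p = 0.00121 and 0.000867). Lyz2, the lysozyme of myeloid cells, rose at least 9.69-fold and at least 22.5-fold, and S100a9, the other calprotectin subunit, at least 4.67-fold and at least 3.70-fold (limma adjusted p = 0.0138, 0.00198, 0.0247 and 0.0282). For Arg1, Lyz2 and S100a9 the naive values were all set to the floor and add no spread to the fit. Their p-values may therefore be too small, and these genes are among the calls counted for this list. Without naive replicate 3 or placebo replicate 5 the placebo count was 2, without naive replicate 4 or placebo replicate 1 it was 3, and the calcitriol count was 3 without calcitriol replicate 8.

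Some markers of myeloid cells were also higher in the EAE groups, in which Cebpb and Cebpd rose. Of the 19 myeloid targets, 12 also stand on the lists of monocyte, macrophage and microglia or neutrophil markers. On a marker list too are 1 of 20 inflammatory targets and 1 of 20 genes on the inducer list. Among the 18 markers of monocytes, macrophages and microglia, 4 rose in placebo-treated and 8 in calcitriol-treated EAE, where 0.887% and 1.68% of all probe sets did. Their summed signal ranged from 3310 to 3430 in naive cord, from 5700 to 7290 with placebo and from 6320 to 10000 with calcitriol, and Lyz2 and Cd53 were at the floor on all naive arrays. The placebo count was 2 without naive replicate 3 and 0 without placebo replicate 5, and the calcitriol count was 5 without naive replicates 3 or 4 and 4 without calcitriol replicates 6 or 8. Of 13 neutrophil markers 3 rose in each comparison (1 for placebo without placebo replicate 5), with summed signals of 3090 to 3390, 4580 to 5580 and 4580 to 5670. They were S100a8, S100a9 and Lcn2, already counted among the targets above, and no naive array had S100a9 above the floor. Elane, Camp and Csf3r were not called higher in either comparison. In RNA from whole cord, more cells of a type and more RNA per cell cannot be told apart, and the part of these cells in the Cebpb and Cebpd rises was not tested. Within EAE, 17 of 18 monocyte, macrophage and microglia markers were higher with calcitriol than with placebo (median 0.35 log2, none past the threshold), where 49.8% of all probe sets were higher. Of the neutrophil markers 7 of 13 were higher (median 0 log2). Higher too were 1 of 9 astrocyte, 1 of 12 neuron and 2 of 9 oligodendrocyte markers (medians -0.26, -0.18 and -0.24 log2), again with none past the threshold. Cebpb and Cebpd, at 0.22 and -0.53 log2, did not pass either, and how they relate to these markers was not tested.

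Markers of resident cells gave other values on these arrays. Against naive cord, 0.936% of all probe sets were called with placebo and 2% with calcitriol. Of 9 measured astrocyte markers 0 passed limma's adjusted threshold against naive in either EAE group, with medians of 0.03 and -0.02 log2, and their summed signal overlapped between groups (6750 to 11800, 8440 to 9590 and 5980 to 9150 on naive, placebo and calcitriol arrays). Neuron markers had medians of -0.49 and -0.70 log2 and oligodendrocyte markers -0.26 and -0.59 log2 against naive, and 1 of these passed, Mog, the myelin surface protein, which fell by 1.83 ± 0.30 log2 (SE, limma adjusted p = 0.0158) with calcitriol. The count of oligodendrocyte markers that fell with calcitriol was 0 without naive replicate 3, calcitriol replicate 6 or calcitriol replicate 8, 2 without naive replicate 4 or calcitriol replicate 7, and 3 without naive replicate 2. Without naive replicate 2, 1 astrocyte marker rose with placebo and 1 fell with calcitriol. Of the neuron markers, 1 rose with calcitriol without naive replicate 2, and 1 fell without naive replicate 2 or 4. No astrocyte, neuron or oligodendrocyte marker was at the floor on all arrays of a group, so markers of the labelled tissue were present throughout. T cell and B cell markers had medians of -0.17 and -0.18 log2 in placebo-treated EAE. The 5′ minus 3′ log2 difference of the beta-actin control probe sets, a measure of how far labelled RNA reached, was -0.05 ± 0.19 in naive, -0.80 ± 0.35 in placebo and -0.67 ± 0.16 in calcitriol arrays (SD, n = 3 each). Its part in the differences from naive cord was not tested. Log2 signals correlated at 0.765 to 0.878 between naive arrays and at 0.899 or more between arrays of an EAE group.

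The integrated stress response is the pathway that induces Ddit3 through the kinases of Eif2s1 and the factor Atf4. Of 28 measured genes, 0 rose or fell in placebo-treated EAE at limma's adjusted threshold, and 1 rose in calcitriol-treated EAE, with medians of 0.11 and 0.28 log2. Over all probe sets 0.936% and 2% were called in these comparisons. The riser was Nupr1, a stress-induced chromatin protein (2.14 ± 0.46 log2, SE, limma adjusted p = 0.0491), which stood at 1.80 ± 0.46 log2 (SE, limma adjusted p = 0.152) in placebo-treated EAE. Hspa5, the endoplasmic reticulum chaperone BiP, stood at 0.73 and 0.87 log2 (limma adjusted p = 0.339 and 0.144), and Slc3a2, an amino acid transporter subunit, at 0.57 and 0.55 log2 (limma adjusted p = 0.134 and 0.105). Eif2ak4, the amino acid sensing kinase GCN2, stood at -1.53 ± 0.31 log2 (SE, limma adjusted p = 0.0622) in placebo-treated EAE, with all placebo arrays at the floor, and at -0.64 ± 0.31 log2 (SE, limma adjusted p = 0.476) with calcitriol. Without naive replicate 2 the rises numbered 1 with placebo and 3 with calcitriol, and without calcitriol replicate 6 there was 1 fall with placebo. Nupr1 lost its call, leaving 0 rises with calcitriol, without naive replicate 4 or without any 1 of the placebo or calcitriol arrays.

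Some other leucine zipper factors pair with C/EBP proteins. Of 18 measured, 1 rose in each comparison with naive, where 0.887% and 1.68% of all probe sets were called higher, and this was Fos (1.6 ± 0.30 and 1.58 ± 0.30 log2, SE, limma adjusted p = 0.0441 and 0.0295), and its other probe set had the opposite sign with calcitriol. Maf stood at -0.74 and -0.65 log2, Fosl2 at 0.29 and 0.24 log2 and Junb at 0.42 and 0.39 log2, none past the threshold. The placebo call was lost without naive replicates 2, 3 or 4, placebo replicates 1 or 5, or calcitriol replicates 6 or 8, and the calcitriol call without naive replicates 3 or 4 or any calcitriol array. Of 12 measured adipogenic genes linked to C/EBP factors in fat, 0 passed in either comparison, where 0.936% and 2% of all probe sets did. Their medians were 0.13 and -0.01 log2. In placebo-treated EAE the fatty acid transporter Cd36 stood at 1.08 log2 (limma adjusted p = 0.162), by a probe set with all naive arrays at the floor. Klf4 stood at 1.48 log2 (limma adjusted p = 0.221), Pparg at 0.73 log2 (adjusted p = 0.748) and Lpl at 0.25 log2 (adjusted p = 0.838).

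**Figure D4:**
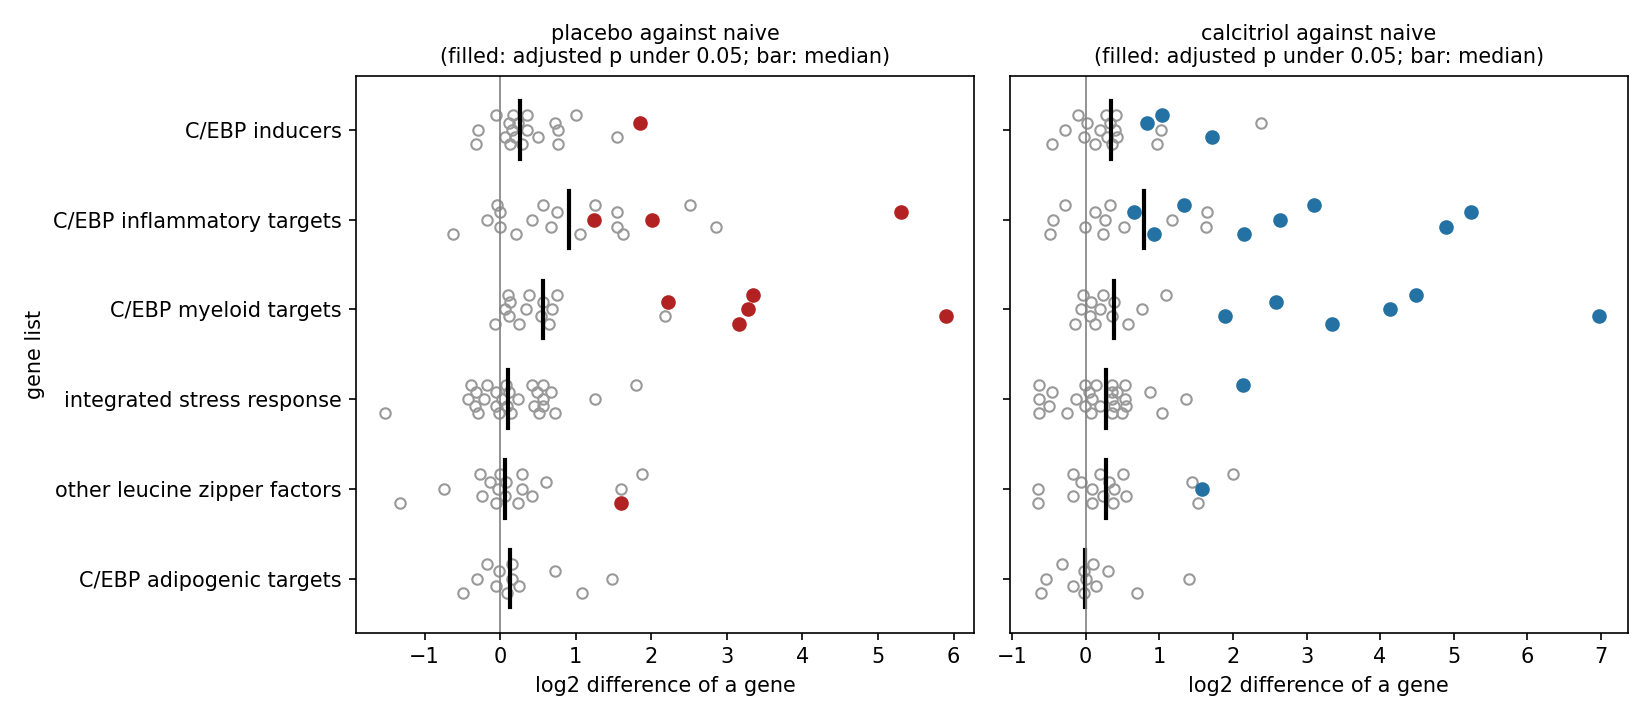
Log2 difference from naive cord of each measured gene (points) on 6 pathway lists, for placebo-treated (left) and calcitriol-treated EAE (right); filled points have an adjusted p under 0.05 and bars are list medians. Filled points number 3 and 8 on the list of inflammatory targets, 5 and 6 on that of myeloid targets and 0 on the adipogenic list. Lists were chosen with earlier results of these data known, and 12 of the 19 myeloid targets also stand on marker lists.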

How the data were processed

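The deposited table holds 1 linear intensity signal for each of 12488 probe sets on 9 1-colour arrays. How the authors scanned, scaled or summarised these intensities was not given in the sources used here. Signals were multiplied so that each array's mean, leaving out controls and the lowest and highest 2%, was 192.8, then set to at least 10% of that mean and log2-transformed. Leaving out 66 controls, 12177 of 12422 probe sets, above the floor on at least 3 arrays, were tested with limma 3.58.1 (R 4.3.3, intensity trend, 6 residual degrees of freedom, Benjamini-Hochberg adjustment). Where all naive arrays of a probe set were at the floor, they add no spread to its fit, and its p against naive cord may be too small. Lists used 1 probe set a gene, a plain one first and then the brightest. Genes were named as every member, up to 4 per list with the smallest unadjusted p in placebo against naive, and the 5 most similar profiles. Members and lists were chosen with earlier results of these data known. In simulations of placebo against naive, of calcitriol against placebo and of calcitriol against naive (12177 probe sets, 200 changed 2-fold, 5 simulations each), 25.7%, 26% and 24.4% of changes were called, and 5.51%, 5.45% and 3.17% of calls were false. How far these rates hold for the measured naive arrays was not tested. Log2 signals of the naive arrays correlated at 0.765 to 0.878, against 0.921 to 0.936 for placebo and 0.899 to 0.938 for calcitriol. Replicate numbers are not shared between groups. Plots were made in Python 3.11.15 (pandas 2.3.3, matplotlib 3.10.9). Alternatives were other scalings, floors and filters, array weights, exact zeros as missing, 2-group fits, no trend and each array left out. The number of arrays limits the precision: log2 differences had a median SE of 0.29.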

Additional observations from a re-analysis of the deposited data

How the results depend on the processing

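Cebpd kept its direction and its call against naive cord in all 19 alternatives, and Cebpa and Cebpg passed the threshold in none of them. Signs that turned, all for differences not past the threshold, were those of Cebpg for calcitriol against placebo (0.09 log2 at a floor of 20%, 0.11 with array weights, 0.02 without placebo replicate 5 and 0.30 without calcitriol replicate 6), of Cebpb and Ddit3 for calcitriol against placebo (-0.24 and -0.34 without placebo replicate 10, and -0.03 for Cebpb without calcitriol replicate 8), and of Cebpa for calcitriol against naive (-0.16 with array weights and -0.03 without naive replicate 2). With each array left out, these 4 differences ran from -0.32 to 0.30 (Cebpg), -0.24 to 0.64 (Cebpb), -0.34 to 0.41 (Ddit3) and -0.03 to 0.18 (Cebpa). The cause was not tested. The number of probe sets past the threshold was 114 for placebo against naive, 639 with array weights and 61 with only those groups fitted, and 20 (without placebo replicate 5) to 176 (without naive replicate 2) with 1 array left out. It was 244 for calcitriol against naive, 1014 and 118 in the same settings, and 75 (without calcitriol replicate 8) to 392 (without naive replicate 2) with 1 array left out. It was 0 for calcitriol against placebo, and 0 to 1 with 1 array left out. No paired analysis was possible because the groups share no replicate numbers. The counts of list genes with each array left out were an alternative chosen after seeing the data. Arrays give no read depth; Cebpb and Ddit3 in naive cord, each at the floor on 2 of 3 arrays, have only an upper bound there.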

Other observations

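The letters of the C/EBP palindrome TTGCNNAA were counted in the RefSeq promoters (250 bases upstream) of the genes measured here, as a description that no test accompanies. Of 6513 tested genes with a promoter at hand, 10.3% held it. Of the genes higher in placebo-treated EAE than in naive cord, 8 of 59 held it (13.6%), and of those higher in calcitriol-treated EAE, 16 of 111 (14.4%). The AP-1 element TGANTCA was held by 6.63% of all tested genes, by 6 of 59 and by 13 of 111. The cAMP response core TGACG, present 3 times upstream of Cebpb, was held by 28.4% of all tested genes, by 11 of 59 (18.6%) and by 24 of 111 (21.6%). The STAT palindrome was held by 7.34%, by 4 of 59 and by 10 of 111. For the full cAMP response element these were 2.72%, 0 of 59 and 1 of 111, and for the C/EBP and ATF composite element 0.737%, 0 of 59 and 3 of 111. A gene counted if any of its promoters held the motif, unlike the shares of single promoters given earlier.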
